A study of Mus musculus with 2 samples.

Results

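Fast skeletal muscle genes were followed together with Myog in single cells that had been cultured from neonatal mouse cardiac tissue. The 8 genes, of 28692 in the count matrices, were Tnnc2, Acta1, Mylpf, Myl1, Tnni2, Tnnt3, Myog and Ckm, and all 8 were found in both libraries by symbol. They had been picked because of their pooled dorsal over ventral ratios in these libraries, so those ratios are given as a description. The tissue was the cardiac base of 3-day-old C57Bl6 mice of both sexes, from 15 hearts. The dorsal library came from a dissection of the pulmonary veins, sinoatrial node and cardiac ganglia. The ventral library came from the pulmonary artery, the outflow tract base and the first stretch of the aorta. Cells of each domain were pooled over hearts, grown as adherent cultures for 5 days and released with trypsin, so both libraries hold only cells that survived culture. No genotype other than the strain and no added agent is named. Each domain was sequenced once, so there were no replicates and no test between domains could be made.

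Skeletal muscle forms when myogenic regulatory factors (Myf5, Myod1, Myog and Myf6, basic helix-loop-helix proteins) act in sequence. Pax3 and Pax7 mark muscle progenitors, Myf5 and Myod1 mark committed myoblasts, and myogenin, the product of Myog, is switched on as myoblasts leave the cell cycle and prepare to fuse. Differentiating cells then make the contractile apparatus in fast, slow and embryonic versions. The heart builds its sarcomeres without myogenin, from cardiac relatives of the same proteins, and fast isoforms are classically used to tell skeletal from cardiac fibres. Some genes of the set have wider use: Acta1 and Ckm are also active in cardiac muscle.

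A barcode was taken as a cell when it had at least 8000 unique molecular identifiers (UMIs) and at most 20% mitochondrial UMIs. This left 8926 dorsal cells with 229117951 UMIs and 10649 ventral cells with 253103590 UMIs. The median cell had 22774 UMIs among dorsal and 21462 among ventral cells. The libraries shared 22 cell barcodes. No cell described below as co-detecting was among them. Levels are CPM, a gene's part of the summed UMIs of a group of cells on the usual scale, or UMIs per 10000 in a single cell. UMIs were read from the 3' end of transcripts, so levels of different genes were compared without a correction for length.

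The genes encode 3 troponin subunits, a thin-filament actin, 2 myosin light chains, a transcription factor and an enzyme. On GRCm38, with GENCODE M21 gene models, Tnnc2 (ENSMUSG00000017300, fast troponin C, the calcium sensor) lies at chr2:164777161-164779967 on the minus strand. Tnni2 (ENSMUSG00000031097, fast troponin I, the inhibitory subunit) lies at chr7:142441808-142444410 and Tnnt3 (ENSMUSG00000061723, fast troponin T, which anchors the complex to tropomyosin) at chr7:142498836-142516009, neighbours on the plus strand. Acta1 (ENSMUSG00000031972, skeletal alpha-actin) lies at chr8:123891769-123894751 on the minus strand. Mylpf (ENSMUSG00000030672, the fast regulatory light chain) lies at chr7:127208890-127214298 on the plus strand, and Myl1 (ENSMUSG00000061816, the fast essential light chain) at chr1:66924295-66945404 on the minus strand. Myog (ENSMUSG00000026459) lies at chr1:134289989-134292548 and Ckm (ENSMUSG00000030399, muscle creatine kinase, which buffers ATP) at chr7:19404776-19422841, both on the plus strand. Tnnc2, Acta1, Tnnt3 and Ckm each overlap a gene on the opposite strand (Ube2c, Gm20388, Prr33 and A930016O22Rik), and how the counting treated strand is not given in the sources used here.

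RefSeq promoter windows on GRCm38.p6 were found for 6 of the 8 genes, with Tnni2 and Tnnt3 unmatched. Myogenic regulatory factors bind E-boxes, spelled CANNTG, which read the same on both strands. The 250 bases before the RefSeq start of 3 genes are shown because the results below set them apart. RefSeq starts and GENCODE gene models differ: 233 bases of the Tnnc2 window and all 250 of the Myl1, Mylpf and Ckm windows lie inside the GENCODE gene, against 15 of the Myog window and 0 of the Acta1 window. Myog had no UMI in ventral cells, Tnnc2 was nearly limited to one group of dorsal cells, and Myl1 was also found in cardiomyocyte-like cells. Tnnc2 had the highest share of dorsal UMIs in that group, 96.4%, but Mylpf at 96.1%, Acta1 at 95.7% and Myog at 94.1% were close. Each window shown runs 5' to 3' on the gene's strand, with E-boxes in capitals.
Myog, chr1:134289754-134290003, plus strand: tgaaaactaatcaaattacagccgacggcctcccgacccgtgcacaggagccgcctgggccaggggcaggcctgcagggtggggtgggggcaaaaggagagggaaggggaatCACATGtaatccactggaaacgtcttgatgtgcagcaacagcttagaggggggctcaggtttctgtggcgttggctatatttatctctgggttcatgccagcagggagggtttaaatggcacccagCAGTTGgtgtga
Tnnc2, chr2:164779735-164779984, minus strand: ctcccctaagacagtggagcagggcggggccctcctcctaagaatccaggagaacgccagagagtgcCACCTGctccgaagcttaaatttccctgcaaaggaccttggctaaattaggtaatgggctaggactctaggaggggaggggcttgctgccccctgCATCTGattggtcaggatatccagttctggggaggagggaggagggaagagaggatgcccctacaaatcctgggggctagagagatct
Myl1, chr1:66945057-66945306, minus strand: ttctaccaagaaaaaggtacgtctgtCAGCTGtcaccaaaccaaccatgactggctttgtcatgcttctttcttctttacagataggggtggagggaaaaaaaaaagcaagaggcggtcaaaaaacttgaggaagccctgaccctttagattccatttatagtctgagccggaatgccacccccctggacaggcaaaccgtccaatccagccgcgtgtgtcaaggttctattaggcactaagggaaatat
The Myog window held 2 E-boxes, the nearest starting 12 bases before the listed start. The Tnnc2 window also held 2 and the Myl1 window 1. All 6 matched genes had at least 1, against 66.2% of the 32851 windows in the table, so the motif is common. The version CAGCTG was found in 4 of the 6 (Acta1, Ckm, Myl1 and Mylpf), against 13.0% of all windows. It overlaps CANNTG by definition. TATAAA on either strand was found in 2 of the 6 (Acta1 and Myl1), against 12.4%. A match is a string of letters and was not tied to binding here.

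The first question was whether the genes were found in the same cells. In the dorsal library 5958 cells had no UMI of any of the 8 genes, 2283 had 1 gene, 520 had 2 and 94 had 3. Above that the counts fell and then climbed again: 24 cells had 4 genes, 1 had 5, 3 had 6, 10 had 7 and 33 had all 8. The ventral library had 9943 cells with none, 672 with 1 gene, 32 with 2, 1 with 3 and 1 with 4. It had no cell with 5 or more, which allows a share of up to 0.0282%. Only the dorsal library had a separate group at the upper end.

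**Figure D1:**
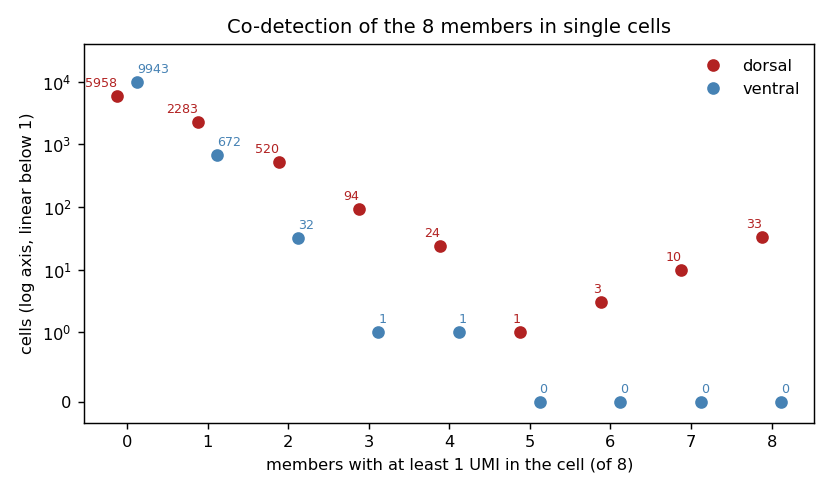
Cells by the number of the 8 genes with at least 1 UMI, dorsal in red and ventral in blue, on a log axis that is linear below 1. The dorsal points fall to 1 cell at 5 genes and climb to 33 cells at 8, while the ventral points end at 1 cell with 4 genes.

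Co-detecting cells, defined as those with at least 4 of the 8 genes, numbered 71 in the dorsal library, 0.795% of its cells (exact Clopper-Pearson 95% interval 0.622 to 1.0%). The ventral library had 1, or 0.00939% (0.000238 to 0.0523%). The intervals, like all below, cover counting error only. The ventral cell held 18 Ckm UMIs and 1 UMI each of Myl1, Tnni2 and Tnnt3, and it also had 697 UMIs of cardiac troponin T (Tnnt2) and 207 of the atrial peptide Nppa. It was absent when at most 10% mitochondrial UMIs were allowed.

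The 71 dorsal cells were of unlike kinds. In 39 of them the 8 genes took 0.865 to 10.9% of all UMIs, with a median of 5.97%. In the other 32 they took 0.00494 to 0.272%, with a median of 0.0331%. The cell next below the 39, which was not co-detecting, stood at 0.424%. A level of 0.5%, chosen after the values were seen, therefore falls in a gap. No ventral cell reached it. Of the 39 cells, 33 had all 8 genes and 6 had 7, and 4 were marked as possible doublets, against 6 of the other 32. Scrublet itself called no dorsal doublet, so these marks are only the highest 7.14% of its dorsal scores.

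Clustering of all cells placed 38 of the 39 together in cluster 25, which held 38 dorsal and 0 ventral cells. Its 10 leading genes were Mylpf, Acta1, Myl1, Tnnc2, Tnnt3, Tnni2, Myog, Tnni1, Mybph and Myl4, 7 of them members of the set. All 12 skeletal muscle markers were found in at least 50% of the 39 cells. Of these 12, Myog, Acta1, Mylpf and Tnnc2 are members that picked the cells, and the 8 others were each found in 34 to 39 of the 39 cells. The remaining cell lay in fibroblast-like cluster 3, was a marked doublet, and had 51 Acta1, 25 Myl1, 11 Myog and 2 Tnnc2 UMIs. Cluster 25 is thus called skeletal muscle-like from markers outside the set as well. It is called neither fast nor slow, since protein families differed. Slow forms took 36.4 to 59.1% of the UMIs of the 3 troponin families in the 39 cells. Fast Mylpf took 99.98% of their regulatory light chain UMIs. The clustering used all these genes, so its contents are no independent evidence. The 39 cells were deep, with a median of 35454 UMIs and a range of 10777 to 72389.

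The 32 weaker cells lay in clusters of other kinds: 9 in fibroblast-like cluster 3, 6 in fibroblast-like cluster 2, 5 in smooth muscle-like cluster 22, 3 in cardiomyocyte-like cluster 23, 3 in unnamed cluster 6 and 6 elsewhere. They held 168 Mylpf, 132 Myl1, 110 Tnnt3 and 80 Acta1 UMIs in all, and 13 of Myog in 5 cells. Myod1 and Myf6 had 0 UMIs in them, and Col1a1, a collagen gene of fibroblasts, was found in 31 of the 32.

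The split did not rest on the 8 genes alone. A set of 10 other skeletal genes, namely Myod1, Mymk, Mymx, Chrna1, Chrng, Cdh15, Myh3, Ryr1, Actn3 and Klhl41, gave 43 dorsal and 0 ventral cells with at least 4 of the 10. All but Mymx and Klhl41 are the skeletal markers from outside the set used above, so the 10 genes add little separate evidence. Of the 43, 42 were among the 71, which is 97.7% of the 43 and 59.2% of the 71. All 39 strong cells passed, with 5 to 10 of the 10 genes and a median of 10. Of the 32 weaker cells 3 passed, and of the 8855 other dorsal cells 1 did.

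Within the 39 cells the regulatory light chain gene Mylpf was the most abundant of the 8. It ranged from 10.2 to 395 UMIs per 10000 with a median of 207, and was found in all 39. Myl1 ranged from 15.4 to 173 with a median of 101, and Acta1 from 8.58 to 260 with a median of 88.8. Mylpf alone made up 37.0% of the UMIs of the 8 genes in these cells.

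The troponin genes followed. Tnnc2 had 1.57 to 138 UMIs per 10000 and a median of 59.4, Tnnt3 had 3.93 to 89.6 and a median of 42.4, and Tnni2 had 2.36 to 62.7 and a median of 32.2. All were found in all 39 cells. Their coefficients of variation over the cells were 0.416 for Tnnt3, 0.519 for Tnni2 and 0.557 for Tnnc2, beside 0.413 for Mylpf and 0.439 for Myl1.

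Myog was found in 38 of the 39 cells, at 0 to 55.2 UMIs per 10000 and a median of 20.5. The cell without Myog had 215 Acta1 and 254 Mylpf UMIs among 10777. Ckm was the weakest and least regular: it was found in 34 of the 39, at 0 to 21.1 UMIs per 10000 with a median of 2.22 and a coefficient of variation of 1.19. Over the 39 cells, which share a library and are shares of one total, Spearman correlations between the genes were highest for Tnni2 with Tnnt3, at 0.72, and for Acta1 with Mylpf, at 0.68. That between Myog and Ckm was -0.40.

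**Figure D2:**
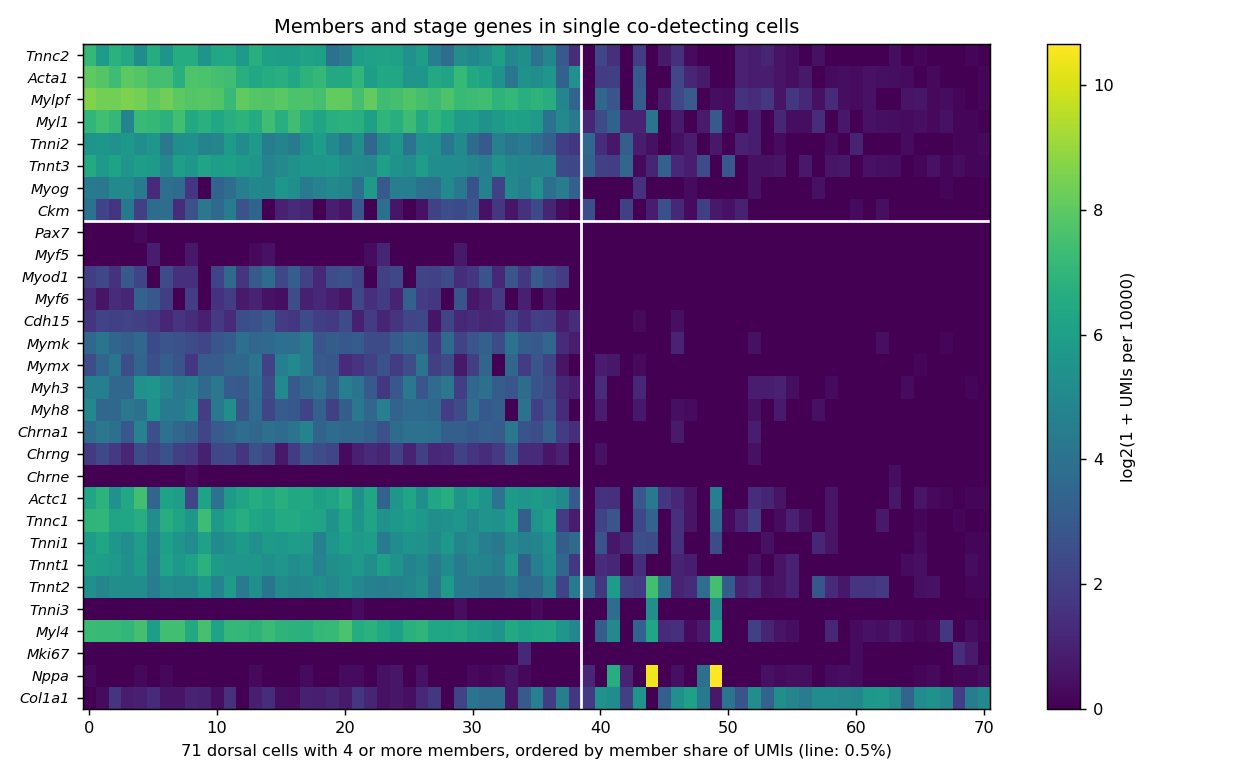
UMIs per 10000, as log2(1 + value), of the 8 genes (above the horizontal line) and of stage, isoform and other cell type genes (below it) in the 71 dorsal co-detecting cells, ordered by the share of UMIs taken by the 8 genes. The 39 cells left of the vertical line, at 0.5% or more, are filled in nearly all rows of skeletal genes, while the 32 to the right have scattered UMIs and more Col1a1.

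The second question was the stage of these cells, read from genes outside the set. Myod1, the determination factor, was found in 34 of the 39 cells with 539 UMIs, and Myf6, a factor of differentiating fibres, in 32 with 298 UMIs. Myf5, the early factor, was found in 7 with 15 UMIs. Pax7, the satellite cell factor, was found in 1 cell with 1 UMI, and Pax3 in 0, which for 39 cells allows a share of up to 7.69%. Of the 4 myogenic regulatory factors Myog had 78.1% of the UMIs, Myod1 13.8%, Myf6 7.64% and Myf5 0.385%. Myog is a member of the set that picked these cells, so its share is a description and no reading of stage. Of 12 genes listed as progenitor and myoblast regulators, 10 had UMIs both in the 71 cells and in other dorsal cells. Of these 10, 6 were at least 2-fold higher in the 71 cells than in other dorsal cells and 2 at least 2-fold lower, against 11.3% and 22.8% of 16164 genes.

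Fusion genes were found in nearly all of the 39. Mymk, encoding myomaker, a membrane protein needed for myoblast fusion, was found in all 39 with 0.787 to 19.6 UMIs per 10000 and a median of 7.61. Mymx, encoding its partner myomixer, was found in 37 with a median of 5.31. Cdh15, encoding the muscle cadherin, was found in all 39 with a median of 2.52. The cell cycle inhibitor gene Cdkn1a had 1808 CPM in the 39 cells, against 297 CPM in dorsal cells outside the 71, and Mef2c, a cofactor of the myogenic factors, had 1294 against 60.9 CPM. Of 13 genes for commitment, cell cycle exit and fusion, 10 were at least 2-fold higher in the 71 cells and 0 lower, against 11.3% and 22.8% of 16164 genes. The median log2 ratio of that list was 3.60, against -0.11 over 14213 genes.

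Cell cycle genes were lower in sum in the 39 cells, but not as a list in the 71. Ube2c, which shares its locus with Tnnc2 on the other strand, had 14 UMIs in the 39 cells, Ccnb1 had 19, Cdk1 had 4 and Top2a had 0. Summed over the 12 listed cell cycle genes the level was 59.1 CPM in the 39 cells and 152 CPM in dorsal cells outside the 71. Of the 12 genes 0 were found in at least 50% of the 39 cells. The dorsal cells outside the 71 include 158 cells of unnamed cluster 21, led by Tpx2, Cdc20 and Cenpe. In the 71 cells 1 of the 12 genes was at least 2-fold higher and 0 at least 2-fold lower, against 11.3% and 22.8% of 16164 genes. The median log2 ratio of the list was -0.18, against -0.11 over 14213 genes.

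Myosin heavy chains were mainly developmental. Myh3, the embryonic form, was found in all 39 cells with 2232 UMIs, and Myh8, the perinatal form, in 37 with 1863 UMIs. Of the adult fast forms, Myh1 had 446 UMIs in 32 cells, Myh4 had 34 in 9 and Myh2 had 0. These genes are close relatives in one cluster and counts could be split between them. Myh1 also had 821 UMIs in ventral cells outside the co-detecting one, and Myh2 had 100.

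Among genes of the neuromuscular junction, the fetal receptor subunit was far more abundant than its adult replacement. Chrna1, for the alpha subunit of the muscle acetylcholine receptor, was found in all 39 cells with a median of 10.8 UMIs per 10000. Chrng, for the gamma subunit of the fetal receptor, was found in 38 with 376 UMIs in all. Chrne, for the epsilon subunit that replaces it at mature synapses, had 1 UMI. It and Myh2 were named after their values were seen. Chrnd was found in 36 cells and the clustering protein gene Rapsn in 39. Of the 10 genes listed, 9 were at least 2-fold higher in the 71 cells, against 11.3% of 16164 genes.

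Genes of calcium release were present as a group. All 11 listed genes that were found in the files were at least 2-fold higher in the 71 cells than in other dorsal cells, against 11.3% of 16164 genes, and the same share stands behind the counts that follow. Atp2a1, for the fast sarcoplasmic calcium pump, had 953 UMIs in 37 of the 39 cells, Cacng1, for the gamma subunit of the skeletal calcium channel, had 929 in 39 and Jsrp1 had 510 in 39. Sln, for sarcolipin, which restrains the pump and is also an atrial gene, had 2681 UMIs in 35. All 12 other fast sarcomere genes were also at least 2-fold higher, among them Mybph with 2320 UMIs, Neb with 1496 and Actn3 with 790, each in all 39 cells. Of 12 genes of muscle energy metabolism, 10 were higher, among them Eno3 with 2500 UMIs and Pgam2 with 1288. All 12 sarcomere genes shared by striated muscles were higher, led by Tpm1 and Des, as were 6 of 8 genes that respond to denervation or atrophy, led by Ankrd1 and Ncam1.

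Of the factors that act upstream of myogenesis in head and trunk, Tbx1 was found in 33 of the 39 cells with 114 UMIs and Isl1 in 22 with 42. Tbx1 acts upstream of the myogenic factors in pharyngeal arch muscle, and Isl1 marks progenitors shared by heart and some head muscles. Lbx1, known for migrating limb muscle precursors, was found in 17 with 20 UMIs. Hoxa5, a positional gene of the trunk, was found in 6 with 7 UMIs, at 4.87 CPM against 36.4 CPM in dorsal cells outside the 71. Of 11 listed genes with UMIs in both groups, 5 were at least 2-fold higher in the 71 cells and 1 at least 2-fold lower, against 11.3% and 22.8% of 16164 genes. The median log2 ratio of the list was 0.76, against -0.11 over 14213 genes.

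The cardiac relatives of the 8 genes were compared within each protein family. Each family was limited to chosen genes: those named here and, for creatine kinase, Ckm, Ckb and Ckmt2. Other genes of a family were not counted. The 39 cells were picked by a high level of the 8 genes and cluster 23 was not. Shares of the 8 genes in the 39 cells, and their contrast with cluster 23, are therefore a description. In the 39 cells Tnnc2 had 47.6% of the troponin C UMIs and the slow and cardiac Tnnc1 52.4%. Tnni2 had 40.9% of troponin I, slow Tnni1 59.1% and cardiac Tnni3 0.0292%. Tnnt3 had 38.5% of troponin T, slow Tnnt1 36.4% and cardiac Tnnt2 25.1%. Acta1 had 64.2% of the striated actins and Actc1, the cardiac form that is also made in embryonic skeletal muscle, 35.8%. Mylpf had 99.98% of the regulatory light chains, with Myl2 and Myl7 sharing the rest. Myl1 had 47.4% of the essential light chains, Myl4, the atrial and embryonic form, 52.6%, and ventricular Myl3 0%. Of 15 slow and cardiac genes with UMIs in both the 71 cells and other dorsal cells, 13 were at least 2-fold higher in the 71 and 0 at least 2-fold lower, against 11.3% and 22.8% of 16164 genes. The 71 include 3 cells of cardiomyocyte-like cluster 23. In the 39 cells alone some cardiac genes were lower than in dorsal cells outside the 71, and others were higher. Among the higher, Tnnt2 had 2810 against 140 CPM, and Myh7 had 32.0 against 0.155 CPM, from 46 UMIs in 6 cells. Tnni3 had 2.09 CPM in the 39 cells and 19.5 CPM in dorsal cells outside the 71, a log2 ratio of -3.22. Myh6, the atrial myosin heavy chain, had 1.39 against 16.8 CPM, a log2 ratio of -3.59, and Myl7 2.78 against 99.7 CPM, a log2 ratio of -5.16. Mybpc3, the cardiac myosin-binding protein, had 0 UMIs in the 39 cells and 1.40 CPM in dorsal cells outside the 71. These 4 genes were picked after their values were seen. The dorsal cells outside the 71 include 46 cells of cluster 23, so the comparison was not with non-cardiac cells alone. The 49 dorsal cells of that cluster had 3355 CPM of Tnni3, 2941 of Myh6, 17659 of Myl7 and 214 of Mybpc3.

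In cardiomyocyte-like cluster 23 the fast troponins, Acta1 and Mylpf were each below 1% of their family. Tnnc2 had 0.147% in its 49 dorsal and 0% in its 32 ventral cells, Acta1 had 0.106% and 0.369%, and Mylpf had 0.0811% and 0%. Tnni2 had 0.468% and 0.194%, while slow Tnni1 had 13.9% of troponin I in the dorsal and 43.2% in the ventral cells and cardiac Tnni3 85.6% and 56.6%. Myl1 stood apart with 13.5% of essential light chain UMIs in the dorsal and 3.53% in the ventral cells of that cluster, or 1.82% in the ventral cells without the 1 cell with most Myl1. Ckm led its family in all 3 groups, at 84.9% of creatine kinase UMIs in the 39 cells, 63.3% in dorsal and 71.6% in ventral cells of cluster 23.

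**Figure D3:**
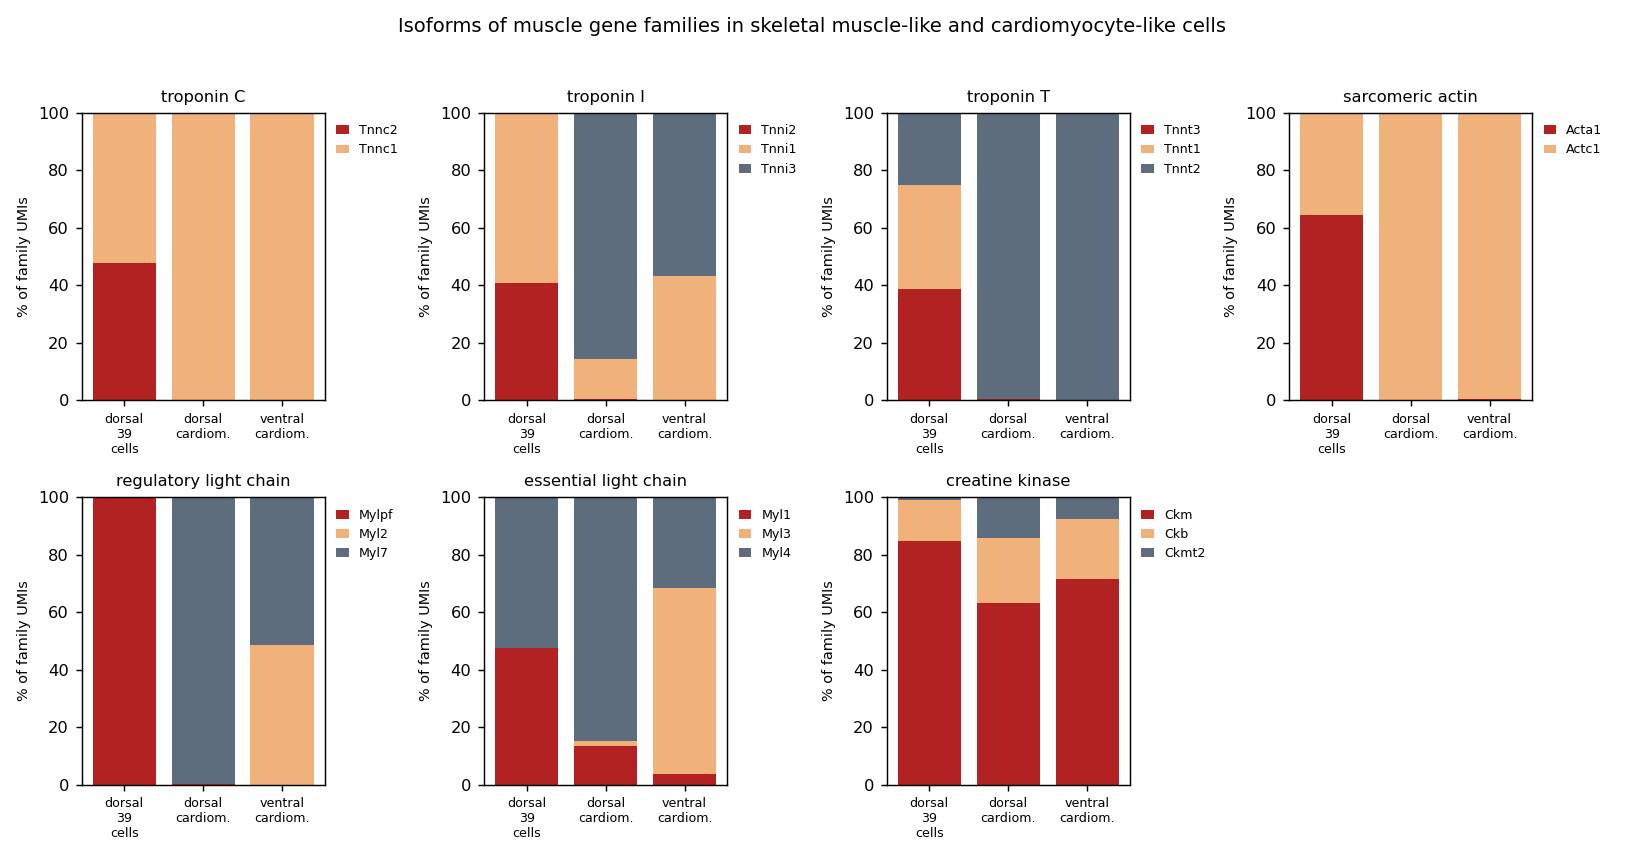
UMI share of each gene among the chosen genes of its protein family. Bars are the 39 dorsal cells at 0.5% or more and the 49 dorsal and 32 ventral cells of cardiomyocyte-like cluster 23. Fast, slow and embryonic forms stand side by side in the 39 cells, while cardiac forms fill most of the cardiomyocyte bars except for slow Tnni1 in the troponin I family and for Ckm.

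Cardiomyocyte markers were checked in the 39 cells as a whole list. Of 12 markers, 3 were found in at least 50% of the 39 cells (Actc1, Tnnt2 and Myl4, which embryonic skeletal muscle also makes) and 2 were at 0 (Ryr2 and Mybpc3). Nppa had 15 UMIs in 15 cells, no more than 1 in any cell, at 10.4 CPM against 361 CPM in dorsal cells outside the 71. Those dorsal cells include 46 cells of cluster 23. The summed list had a median of 217 UMIs per 10000 in the 39 cells (57.4 to 392) and of 0.415 in the other dorsal cells (0 to 2907). Actc1, Tnnt2 and Myl4 account for nearly all of it in the 39 cells, at 6421, 2810 and 10792 CPM. Fibroblast markers, summed over 10 genes, had a median of 4.32 UMIs per 10000 in the 39 cells and 145 in the other dorsal cells.

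The third question was the level of the 8 genes in each domain as a whole. Mylpf reached 141 CPM in dorsal cells (32297 UMIs) against 1.30 CPM in ventral ones (328 UMIs), and the log2 ratio was 6.77. Acta1 had 75.6 against 0.905 CPM, a log2 ratio of 6.38, and Myl1 had 70.2 against 0.707 CPM, a ratio of 6.63. Tnnc2 had 36.9 against 0.229 CPM, a ratio of 7.33. Tnnt3 had 32.7 against 0.470 CPM, a ratio of 6.12, and Tnni2 had 20.3 against 0.296 CPM, a ratio of 6.10. Ckm had 4.58 against 2.36 CPM, a ratio of 0.96 (0.81 to 1.10), which became 1.96 when at most 10% mitochondrial UMIs were allowed.

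Myog had 3238 UMIs in dorsal cells, or 14.1 CPM, and 0 in ventral cells. Taken against 3 counts in the ventral library, this is at least 1192-fold higher in the dorsal library. Of the 8 genes 7 passed a 2-fold excess in the dorsal library and Ckm did not. Of 5821 genes that reached 20 CPM in at least 1 library, 4.69% passed it, and of 21318 genes with no minimum 20.8% did. The 6 genes other than Myog and Ckm passed that minimum. The median log2 ratio was 6.51 for the 8 genes, with Myog at its bound, and 0.01 for the 5821. Since the genes were picked for these ratios, nothing is read from the count.

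Most of the dorsal signal sat in the 71 cells. They held 96.9% of the dorsal UMIs of Tnnc2, 96.6% of Mylpf, 96.2% of Acta1 and 94.5% of Myog. They held 91.0% of Tnni2, 87.8% of Myl1 and 84.0% of Tnnt3, and 70.6% of Ckm. The 39 strong cells alone held 67.5% (Ckm) to 96.4% (Tnnc2). Of 14813 genes with at least 50 dorsal UMIs, 118, or 0.797%, had at least 50% of them in the 71 cells, and all 8 genes were among these. The cells were picked by these 8 genes, so their own shares are a description.

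The 12 other genes with the highest share of dorsal UMIs in the 71 cells were ranked by that share over genes with at least 50 dorsal UMIs. They were Chrnd at 98.4%, Pnmt at 97.4%, Cacng6 at 97.2%, Gm28653 at 96.9%, Mymx at 96.8%, Chrna1 at 96.8%, Cacng1 at 96.8%, Vgll2 at 96.7%, Myf6 at 96.4%, Myod1 at 96.2%, Tceal7 at 96.1% and Mybph at 95.8%. Chrnd and Chrna1 encode receptor subunits, Cacng6 and Cacng1 gamma subunits of calcium channels, and Vgll2 a cofactor of TEAD proteins in skeletal muscle. In ventral cells Chrnd, Gm28653 and Myod1 had 0 UMIs, and the other 9 had 1 (Pnmt) to 7 (Myf6).

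Gm28653 is a long noncoding RNA gene at chr1:20669882-20684298 on the plus strand of GRCm38, and the annotation places the muscle microRNA genes Mir206 and Mir133b inside it. The microRNAs themselves were not measured. Their mature 3p sequences from RefSeq (GRCm38.p6) are shown because this locus ranked with the 8 genes, with the seed, bases 2 to 8, in capitals.
mmu-miR-206-3p, chr1:20679055-20679076: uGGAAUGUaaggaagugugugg
mmu-miR-133b-3p, chr1:20682834-20682855: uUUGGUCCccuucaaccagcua
The seeds differ. Gm28653 had 375 of its 387 dorsal UMIs in the 71 cells, in 36 of them.

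Pnmt encodes the enzyme that makes adrenaline from noradrenaline. It lies at chr11:98386450-98388181, 1496 bases beyond the end of Tcap, the telethonin gene, on the same strand. The 39 cells had 494 Pnmt and 526 Tcap UMIs. The cells of cluster 23 had 361 Tcap and 1 Pnmt UMIs among dorsal cells, and 267 Tcap and 0 Pnmt UMIs among ventral cells. Whether Pnmt UMIs came from reads that ran past the Tcap end was not tested.

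The fourth question was what remained outside the 71 dorsal cells and the 1 ventral cell. Among the 8855 other dorsal cells, Myl1 had 8.68 CPM against 0.703 CPM in 10648 ventral ones, and the log2 ratio was 3.63 (3.40 to 3.86). Tnnt3 had 5.28 against 0.466 CPM, a ratio of 3.50 (3.23 to 3.79), and Mylpf had 4.87 against 1.30 CPM, a ratio of 1.91 (1.73 to 2.09). Acta1 had 2.91 against 0.905 CPM, a ratio of 1.69 (1.47 to 1.91). Tnni2 had 1.85 against 0.292 CPM, a ratio of 2.66 (2.31 to 3.04), and Tnnc2 had 1.16 against 0.229 CPM, a ratio of 2.34 (1.92 to 2.77). Myog had 179 UMIs in dorsal cells against 0 in ventral cells, at least 66.7-fold higher.

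Ckm ran the other way, with 1.36 CPM in the other dorsal cells against 2.29 CPM in the ventral ones, which gave a log2 ratio of -0.75 (-0.95 to -0.55). It turned to 0.12 when at most 10% mitochondrial UMIs were allowed. Again 7 of the 8 genes passed a 2-fold excess in dorsal cells, against 14% of 16969 genes with at least 20 UMIs over both libraries. The median log2 ratio was 2.50 for the 8 genes and 0.13 over all. Since the genes were picked for their ratios in these libraries, nothing is read from this count or this median.

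**Figure D4:**
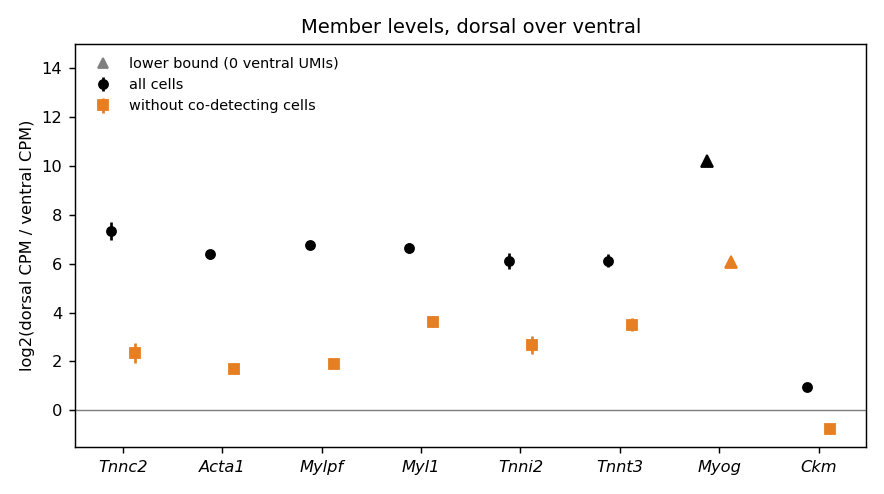
Log2 of dorsal over ventral CPM for each gene, over all cells (black circles) and without the co-detecting cells (orange squares), with exact 95% counting intervals where they exceed the symbol. Triangles are lower bounds for Myog, which had 0 ventral UMIs. Each gene is lower without the co-detecting cells, and Ckm lies under 0.

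Free RNA was present in the dorsal suspension at nearly the level of the whole library. In barcodes of 1 to 100 UMIs, taken as free RNA, Mylpf had 139 CPM in dorsal and 5.44 CPM in ventral barcodes. Acta1 had 83.3 against 4.44 CPM, Myl1 had 85.8 against 6.58 CPM and Myog had 13.0 against 1.0 CPM, the last from 48 and 7 UMIs. Of all 18 ventral Myog UMIs, 16 were on barcode sequences of dorsal co-detecting cells and 2 elsewhere. Whether the 7 were free RNA of the ventral suspension was not tested, and ventral free levels of the other genes share this limit. Ckm had 6.49 against 7.30 CPM. The part of free RNA in the levels of other cells was not tested, and its mixture of the 8 genes is set beside theirs. Mylpf made up 37.0% of the UMIs of the 8 genes in the 39 cells, 32.3% in dorsal free RNA, 30.7% in dorsal cluster 2, 29.2% in cluster 3, 31.7% in cluster 5 and 28.9% in cluster 6. Acta1 made up 19.8% in the 39 cells and 19.4% in dorsal free RNA, against 18.6% in cluster 2, 17% in cluster 3, 18.6% in cluster 5 and 20.3% in cluster 6. Tnnt3 made up 11.8 to 13.3% in these 4 clusters, against 7.37% in the 39 cells and 8.18% in dorsal free RNA.

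To compare cells of unlike depth, each cell was thinned to 8000 UMIs. Then 14.2% of the other dorsal cells had a UMI of any of the 8 genes (13.5 to 15.0%), against 2.63% of the ventral cells (2.33 to 2.95%). Without thinning the shares were 32.7% and 6.62%. In dorsal endothelial-like cluster 18 the thinned share was 9.43% at a median depth of 21014 UMIs. It was 10.1% in cluster 3, 10.8% in cluster 2, 11.3% in cluster 6 and 13.7% in cluster 5. The counting interval of the endothelial-like share was 4.62 to 16.7%. The other dorsal clusters lay from 13.1% to 18.8%, with unnamed cluster 10 at 18.7% (15.6 to 22.1%), macrophage-like cluster 17 at 18.5% and glia-like cluster 20 at 18.8%, except clusters 22, 23 and 26 at 62.4%, 91.3% and 52.6%.

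Clusters 22, 23 and 26 stood apart in these shares. Smooth muscle-like cluster 22, led by Des, Actg2 and Sbspon, had 125 such cells, all dorsal, and held 627 of the 1197 Tnnt3 UMIs found outside the 71 cells. Its Tnnt3 level was 259 CPM (239 to 280), and 56.0% of its thinned cells had a Tnnt3 UMI. Ckm had 35.9 CPM and Tnni2 28.9 CPM there, while Mylpf made up 1.34% of its UMIs of the 8 genes against 32.3% in free RNA. Cluster 26, also dorsal and smooth muscle-like by its markers but led by Grem1, Cxcl14 and Chrdl1, had 38 cells with 111 CPM of Tnnt3 (82.3 to 146) and 44.3 CPM of Tnni2. Only 12 of the 38 cells had a Tnnt3 UMI and 1 cell had 23 of the 50, without which the level was 61.3 CPM (40.4 to 89.2).

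Myl1 was highest outside the skeletal cells in cardiomyocyte-like cluster 23. It had 1091 CPM in 46 dorsal cells (1032 to 1152) against 207 CPM in 31 ventral cells (175 to 244), and 1286 of its 1967 outside UMIs were in those dorsal cells. It was found in 43 of the 46 dorsal and 14 of the 31 ventral cells. In the ventral cells 1 cell had 77 of the 143 UMIs, without which the level was 99.3 CPM (76.8 to 126), and in the dorsal cells no cell had more than 98. Without that ventral cell the log2 ratio of Myl1 over all cells outside the co-detecting ones was 4.44 in place of 3.63, and with at most 10% mitochondrial UMIs it was 4.67. Mylpf made up 0.455% of the UMIs of the 8 genes in the dorsal cells of this cluster, and Tnnc2 0%.

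Ckm had the opposite order in cluster 23, at 142 CPM in dorsal (121 to 165) and 718 CPM in ventral cells (656 to 784). These ventral cells held 495 of the 580 ventral Ckm UMIs outside the co-detecting cell, and 24 of 31 had at least 1. The regulatory light chains of the cluster also differed, with Myl7, the atrial form, at 99.7% in dorsal and 51.4% in ventral cells, and Myl2, the ventricular form, at 0.225% and 48.6%. The kind of cardiomyocyte and the domain cannot be told apart.

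Tnni2 was found in macrophage-like cluster 17 of both libraries, at 10.6 CPM in 195 dorsal cells (8.60 to 13.0) and 13.2 CPM in 131 ventral cells (9.83 to 17.3). The ventral macrophage-like cells held 52 of the 74 ventral Tnni2 UMIs. After thinning 8.21% of dorsal and 11.5% of ventral cells of the cluster had a Tnni2 UMI, and the intervals of the levels overlap. Without clusters 17, 22, 23 and 26, a set chosen after the values were seen, the log2 ratios were 3.88 for Tnni2, 2.17 for Tnnt3, 4.45 for Myl1 and -0.47 (-1.0 to 0.06) for Ckm.

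**Figure D5:**
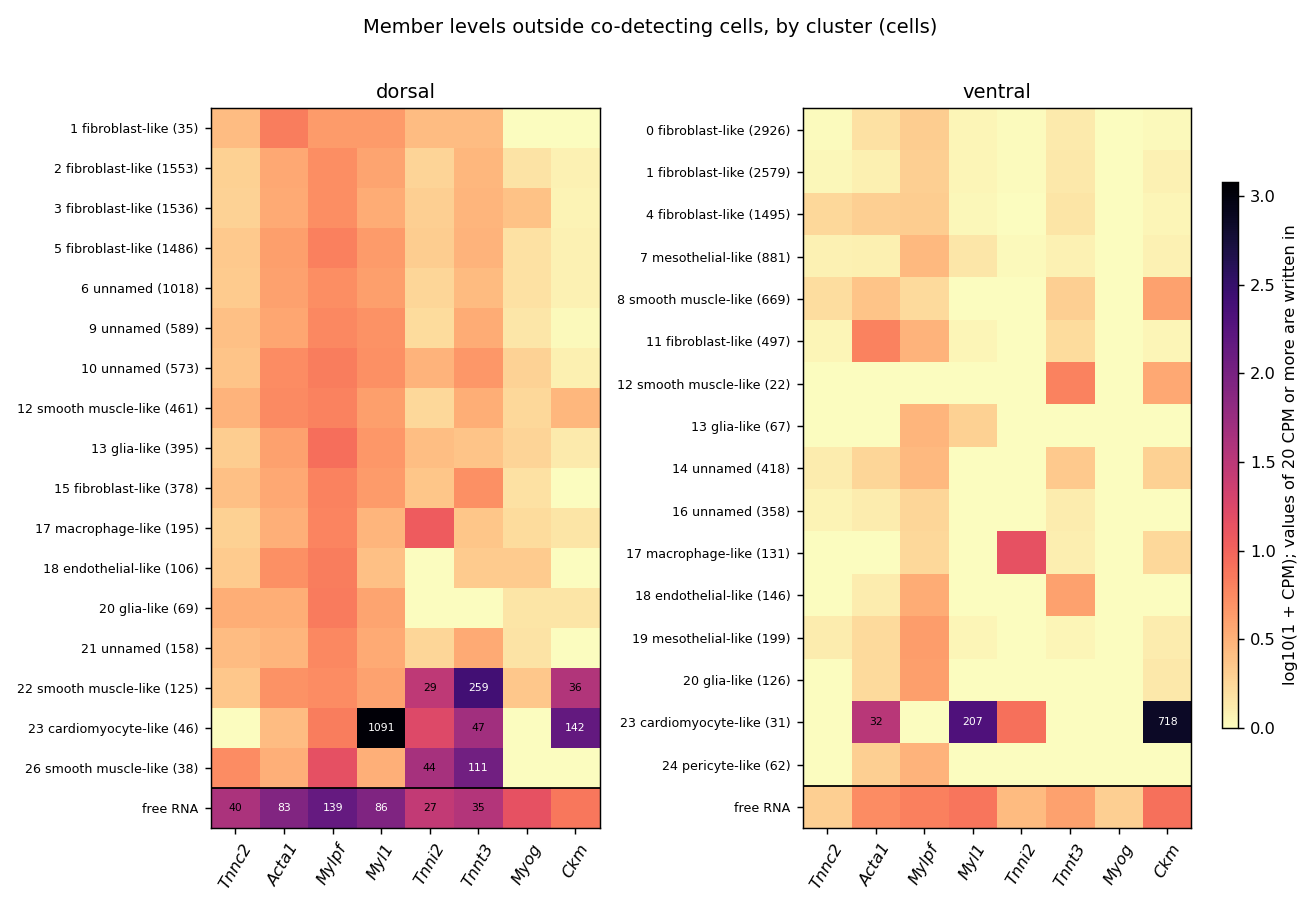
CPM of each gene, as log10(1 + CPM), in clusters of at least 20 cells outside the co-detecting cells (cell numbers in brackets) and in free RNA, dorsal on the left and ventral on the right. Values of 20 CPM or more are written in, and stand out for Tnnt3 in clusters 22 and 26, Myl1 and Ckm in cluster 23 and, below the line, dorsal free RNA.

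Single cells carried some of what was left. A fibroblast-like dorsal cell of cluster 3 had 52 of the 179 Myog UMIs outside the 71 cells, and the next highest cell had 4. It had 38365 UMIs, with 5 of Tnnt3 and 2 of Myl1, 0 of the other 5 genes of the set, 2 each of Myod1 and Mymk, 126 of Col1a1, and was not marked as a doublet. Myog was thus high there with hardly any contractile gene. In the ventral library 59 of the 229 Acta1 UMIs were in 1 cell of cluster 11, a marked doublet, and 28 in another cell. Without that doublet the Acta1 ratio outside the co-detecting cells was 2.11.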

How the data were processed

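A dorsal and a ventral cell pool were each sequenced as 1 library with 10x Genomics 3' v3 chemistry, per the labels' protocols. Cell Ranger 3.0.2 and mm10 are named in the submitters' processing notes, while the gene annotation and the settings are not given in the sources consulted. The deposited matrices contain UMI counts as whole numbers, not normalised, over 28692 genes and 6794880 barcodes, empty barcodes included.

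Cells were barcodes with at least 8000 UMIs and at most 20% mitochondrial UMIs. They held 92.8% of the dorsal and 95.6% of the ventral UMIs. Scrublet marked 5.11% of ventral cells as doublets. It marked 0 dorsal cells, below the 0.5% at which it was taken to have failed, so the 637 highest dorsal scores (7.14%) were marked instead. Doublets were kept in the main values. Cells of both libraries were normalised to 10000 UMIs, log-transformed and clustered without integration (scanpy 1.11.5, 2000 variable genes, 30 principal components, 15 neighbours, Leiden resolution 1.0). Clusters were named "-like" from marker lists. Free RNA was read from barcodes of 1 to 100 UMIs.

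With 1 library per domain no test was made. Intervals are exact 95% intervals (Poisson for CPM, conditional binomial for ratios, Clopper-Pearson for shares) and cover counting error only, not dissection, culture or library preparation. For a count of 0, 3 counts served as the upper limit. The functions were checked on simulated counts. Genes were named by rule: the 8 members, up to 6 per list by level in co-detecting cells, the main myogenic and upstream factors, and the 12 genes most alike by share of dorsal UMIs. The 8 genes, the 13 lists and the rules were chosen with earlier results of these data known. Mymk and Mymx are listed in the files under the older symbols Tmem8c and Gm7325, and Mrln was not matched. Alternatives covered UMI and mitochondrial limits, doublets, shared barcodes, the co-detection rule, thinning, and TMM (edgeR 4.0.16) and DESeq2 1.42.0 size factors.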

Additional observations from a re-analysis of the deposited data

Results flagged for a closer look

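Outside the cell rule, 55 dorsal barcodes had at least 4 of the 8 genes at 0.5% or more of their UMIs, a signal in barcodes that no comparison used. Of these, 35 had under 500 UMIs, 11 had from 500 to under 2000, 7 had from 2000 to under 8000 and 2 had at least 8000 UMIs but over 20% mitochondrial UMIs. The ventral library had 21 such barcodes, 20 of them under 500 UMIs. All 20 carry the barcode sequence of a dorsal co-detecting cell.

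Myog had 18 UMIs in ventral barcodes that were not cells, against 0 in ventral cells. Of the 18, 16 (88.9%) were on barcodes of the 71 dorsal co-detecting cells, which held 0.00306% of all ventral UMIs. The same barcodes held 23.8% of the ventral Tnnc2 UMIs, 20.8% of Tnni2, 19.0% of Acta1, 18.6% of Mylpf, 12.4% of Myl1, 10.8% of Tnnt3 and 0.224% of Ckm. None of these barcodes was a ventral cell, and the highest had 307 ventral UMIs.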

How the results depend on the processing

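The dorsal count of 71 co-detecting cells became 165 when at least 3 genes were asked for, 46 with at least 6 genes and also 46 when detection took 2 UMIs, 43 by the 10 other skeletal genes and 39 by the level of 0.5%, a definition added after the data were seen. The ventral count of 1 became 2 with at least 3 genes and 0 with at least 6 genes, with 2 UMIs, with the 10 other genes, with the level of 0.5% and with at most 10% mitochondrial UMIs. The median log2 ratio over all cells, 6.51, was 6.30 with a minimum of 2000 UMIs, 6.25 with at most 10% mitochondrial UMIs and 6.77 without marked doublets. Without thinning, the share of other cells with a UMI of the 8 genes was 32.7% in dorsal and 6.62% in ventral cells, against 14.2% and 2.63% thinned. Ckm outside the co-detecting cells turned from a log2 ratio of -0.75 to 0.12 with at most 10% mitochondrial UMIs. The cause of these shifts was not tested. Of the other values for single genes, 22 moved beyond their counting interval without a change of sign and 105 did not. The ratios of Myog, with 0 ventral UMIs, had no counting interval and were judged by a fixed band around the bound. With no minimum on level, 4435 of 21318 genes passed a 2-fold dorsal excess, against 273 of those at 20 CPM or more. Scaling over all cells would shift every pooled log2 ratio alike, by -0.12 with TMM and by -0.14 with DESeq2 size factors, and the ratios outside the co-detecting cells were not rescaled. No paired analysis was possible because each domain has 1 library. For the same reason no library could be left out. Depth limits low counts: a gene at 0 in all ventral cells could still reach 0.0119 CPM.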
